A study of Mus musculus with 2 samples.

Results

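The replication-dependent histone genes, called members here, were all genes whose current mouse symbol starts with Hist1h, Hist2h, Hist3h or Hist4h. The annotation holds 70 such symbols, of which 67 had a row under their own gene identifier among the 43346 Ensembl genes of the deposited tables, and Hist1h2bh, Hist1h2bm and Hist2h2bb did not. The 67 were 6 H1, 20 H2A, 16 H2B, 12 H3 and 13 H4 genes. By cluster, 54 were Hist1 genes on chromosome 13, 9 Hist2 genes on chromosome 3, 3 Hist3 genes on chromosome 11 and 1 a Hist4 gene on chromosome 6. Of these, 3 are annotated as pseudogenes, namely Hist1h2aj, Hist1h2al and Hist3h2bb-ps, and Hist1h2al lies on chromosome 13 but far from the cluster.

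These genes encode the core histones H2A, H2B, H3 and H4, which make up the nucleosome, and the linker histone H1, which binds the DNA between nucleosomes. They lie in a few chromosome clusters, most have no introns, and they are transcribed mainly in S phase, when new DNA has to be packed. Their mRNAs are the known exception among animal messages in ending in a conserved stem-loop and not in a poly(A) tail; the stem-loop is bound by SLBP, and the U7 small nuclear ribonucleoprotein directs the cut just after it. The replacement variants, such as H3.3 and H2A.Z, come from genes outside these clusters, carry poly(A) tails and are made throughout the cell cycle. In the intestine, cell division is known to be confined largely to the proliferating part of the epithelium and to growing mesenchyme.

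The values come from total RNA-seq of whole intestine of 2 newborn mice (0 days old, strain B6NCrl, no treatment or allele named in the labels), pup 1 and pup 2 of 1 litter, with 1 library each and sex not collected. RNA longer than 200 nt was used, 10 ng per library. There was no second group, so both pups are replicates of 1 condition and the comparison between them describes their spread.

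The 2 libraries held 44568098 and 34797495 expected counts in Ensembl genes, in pup 1 and pup 2. Markers of the labelled tissue were present: all 8 genes of the intestinal epithelium list and all 6 of the smooth muscle list reached 1 TPM in both pups (the deposited level, adjusted for transcript length). Genes listed as markers of blood and of neighbouring organs were present too. The summed level of 9 erythroid genes was 1712 TPM in pup 1 and 2576 TPM in pup 2, that of 8 exocrine pancreas genes 199 and 284 TPM, and that of 7 liver genes 998 and 1119 TPM. Within these lists some defining genes were low: Ptf1a was at 0 in both pups, Pnlip at 0 in pup 1 and 0.08 TPM in pup 2, Alb at 0.79 and 0.86 TPM in pups 1 and 2, Ahsg at 1.23 and 0.45 TPM, and Klf1 at 0.45 and 0.51 TPM. Most of the liver sum came from Afp at 427 and 551 TPM, Ttr at 335 and 310 TPM and Cps1 at 174 and 193 TPM. Which cells these RNAs came from was not tested. The libraries are of whole tissue, in which fewer cells of a type and less RNA per cell cannot be told apart. The members were a small part of the RNA, 0.227% of all TPM in pup 1 and 0.204% in pup 2.

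The stem-loop that defines this gene class was looked for in the annotated transcripts as a 6-base arm that starts with GG, a 4-base loop that starts with TT, and the arm that pairs with the first. It is shown here for the highest member of each histone type in which it was found, with 5 bases on either side where the transcript model has them. Capitals mark the stem-loop, and the mRNA has U where T is written.
Hist1h1c: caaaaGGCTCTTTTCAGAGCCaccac
Hist1h2ap: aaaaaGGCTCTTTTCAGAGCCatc
Hist3h2ba: ccaaaGGCTCTTTTCAGAGCCacctt
Hist1h3d: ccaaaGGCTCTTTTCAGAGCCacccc
Hist1h4d: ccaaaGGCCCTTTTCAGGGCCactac

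In the annotation's build, GRCm38, these stem-loops lie at chr13:23739512-23739527 for Hist1h1c on the plus strand, chr13:21833029-21833044 for Hist1h2ap on the minus strand and chr11:58949349-58949364 for Hist3h2ba on the plus strand, in each case after the stop codon. Those of Hist1h3d and Hist1h4d lie at chr13:23576244-23576259 and chr13:23581950-23581965, both on the plus strand. The H1, H2A, H2B and H3 examples share the same 16 letters, and the H4 example differs in the arms, which read GGCCCT in place of GGCTCT. Over all members, the commonest form was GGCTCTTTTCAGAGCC, in 22 genes, and the form of Hist1h4d, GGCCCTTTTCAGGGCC, came next with 7. Of the 50 members with an annotated coding transcript that runs at least 20 bases past the stop codon, 42 held the stem-loop within 100 bases after it. Among 20904 other genes measured the same way, 11 did, a share of 0.0526%, and those 11 include Hist1h2bh and Hist1h2bm, which have no row of their own, and H2afx, the H2A.X gene, whose mRNA is known to be made in a stem-loop form too.

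Transcript models without the motif are not evidence about the RNA. Hist1h2bc, the highest H2B gene, has a reference model of 2 exons with 742 bases after its stop codon and no match to these letters, while Hist1h3i, the highest H3 gene, has a model that stops at the stop codon and so could not be searched. Where it was found, the stem-loop began 21 to 58 bases after the stop codon, with a median of 32. In 20 of the 40 members whose reference transcript holds it, that model runs over 100 bases past the stem-loop. Examples are Hist1h1c with 840 bases and Hist1h4d with 770. In 3 the reference model ends within 20 bases of the stem-loop. Models as quantified can be shorter: that of Hist1h4d has 393 bases against 1138 in the reference. Hist1h2ap is 1 of those 3, with a model that ends 3 bases after the stem-loop. The median level of the 40 members with a stem-loop in the reference model was 2.54 TPM, and 25 of them reached 1 TPM in each pup. The median of the other 27 was 0.925 TPM, and 13 reached 1 TPM in each pup. Only 9 of these 27 have a model that runs at least 20 bases past an annotated stop codon. The comparison therefore does not set genes with a stem-loop against genes that lack it. The kit manual cited in the labels is for a SMARTer Ultra Low RNA kit. Priming from poly(A) tails or at random is a detail not given in the sources used here. How far tailless mRNAs were captured was not tested.

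Histone mRNA of this class was dominated by a handful of genes. Of the 67 members, 38 (56.7%) reached 1 TPM in both pups, against 59.1% of 21474 protein-coding genes and 32.0% of all Ensembl genes. 12 members reached 10 TPM in both pups, and 5 were listed at 0 in both. A listed 0 is how the quantification divided shared reads: of these 5, only Hist1h1t and Hist1h2aa also had a posterior mean count of 0 in both pups. The summed level was 2268 TPM in pup 1 and 2036 TPM in pup 2, 2152 ± 164 TPM (SD, n = 2). The 4 highest genes, Hist1h2ap, Hist1h2bc, Hist1h4d and Hist1h1c, made up 84.7% of it in pup 1 and 83.5% in pup 2, and they are genes of 4 different types. The median member, by contrast, was at 1.74 TPM in pup 1 and 1.34 TPM in pup 2.

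**Figure D1:**
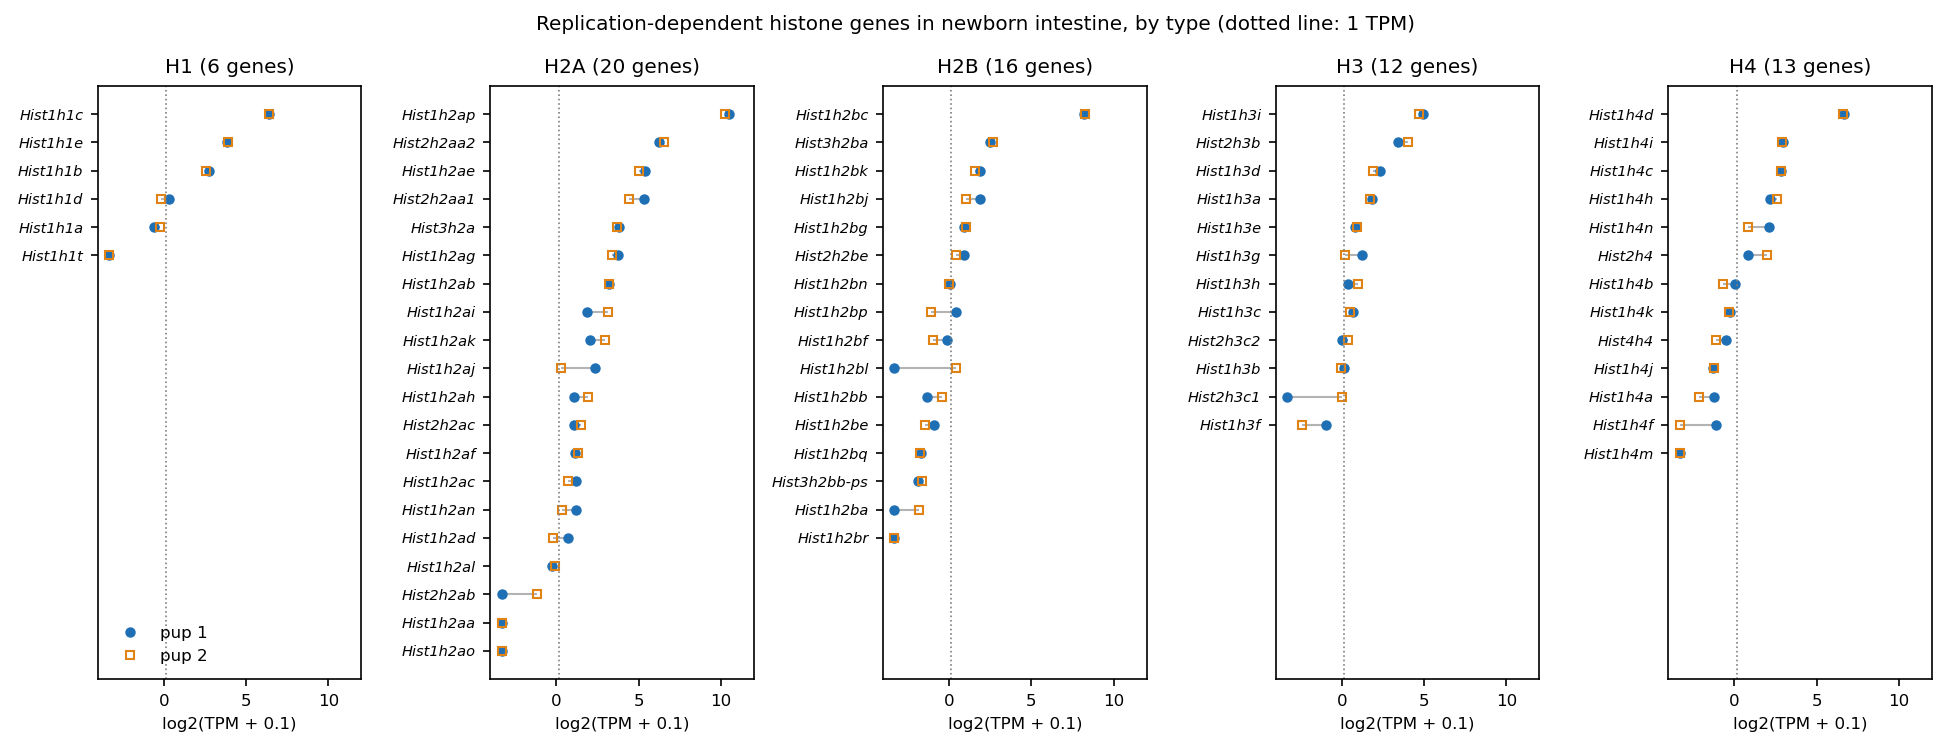
Level of each of the 67 members as log2(TPM + 0.1), in 5 panels by histone type, with pup 1 as filled circles and pup 2 as open squares joined by a line. Within each type the highest gene stands to the right, from Hist1h2ap at 1449 and 1216 TPM in pups 1 and 2 down to Hist1h3i at 30.05 and 26.0 TPM, and a tail of lower genes reaches the dotted line at 1 TPM or lies left of it.

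By type, H2A genes held 71.7 ± 2.51% of the members' TPM, H2B genes 14.7 ± 1.61%, H4 genes 5.91 ± 0.381%, H1 genes 4.98 ± 0.310% and H3 genes 2.70 ± 0.204% (SD, n = 2 for each). Nucleosomes hold the 4 core types in equal amounts, and the summed mRNA levels were far from equal: 1667 and 1424 TPM for H2A in pups 1 and 2, 307 and 322 TPM for H2B, 128 and 126 TPM for H4 and 58.0 and 57.9 TPM for H3. The order of the 5 types was the same in both pups, but by CPM H1 stood above H4. H2A stood first because of 1 gene: without Hist1h2ap the H2A sum was 218 TPM in pup 1 and 209 TPM in pup 2, the H2A share was 26.0 ± 0.814%, and H2B had the largest share at 38.4 ± 1.24%. The pattern of 1 leading gene held in other types as well. Hist1h2bc made up 93.8 ± 0.594% of H2B TPM, Hist1h1c 79.1 ± 0.144% of H1 TPM and Hist1h4d 77.8 ± 0.0759% of H4 TPM. The Hist1 cluster held 92.8 ± 0.764% of the members' TPM, Hist2 6.32 ± 0.7001%, Hist3 0.902 ± 0.0700% and Hist4 0.0223 ± 0.00586%.

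Among the H1 genes, Hist1h1c, which encodes the somatic linker histone H1.2, had 85.4 TPM in pup 1 and 83.6 TPM in pup 2. Hist1h1e, for H1.4, had 14.3 and 14.9 TPM in pups 1 and 2, and Hist1h1b, for H1.5, had 6.52 and 5.86 TPM. No other H1 gene reached 1 TPM in each pup. Hist1h1d, for H1.3, had 1.14 TPM in pup 1 and 0.79 TPM in pup 2, and Hist1h1a, for H1.1, had 0.56 and 0.74 TPM. Hist1h1t, the testis linker histone, was listed at 0 in both pups, which allows at most 3 counts per library. In the reference annotation, part of Hist1h1e overlaps Hist1h2be on the same strand. That reference model has 1930 bases, while the model in the deposited tables has 748. The deposited posterior SD of the Hist1h1e count was 1.47% of the count in pup 1 and 1.77% in pup 2.

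Hist1h2ap was the highest member by a wide margin, with 19957 expected counts in pup 1 and 12828 in pup 2, and 1449 and 1216 TPM, 1332 ± 165 TPM (SD, n = 2). It ranked 62 among 21474 protein-coding genes by mean level, against 456 for Hist1h2bc, 1310 for Hist1h4d and 1552 for Hist1h1c. It encodes a canonical H2A, and its coding sequence is identical to that of Hist1h2ao, which was at 0 in both pups. Over 100-base windows, the length that reads of this study take up in the deposited effective lengths, 92.2% of the windows of the Hist1h2ap transcript occur in Hist1h2ao too, 68.7% in Hist1h2ag and 35.8% in Hist1h2ae. Only 30 of its 383 windows occur in no other gene, and all 30 begin within the first 30 bases of the transcript. The deposited posterior SD of its count was nevertheless 0.213% of the count in pup 1 and 0.280% in pup 2. The division of these reads between Hist1h2ap and its copies rests on the authors' quantification alone. Some windows also occur outside the H2A members, 26.1% in Gm11336 and 4.70% in H2afx.

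The other H2A genes with high levels were a pair of copies on chromosome 3 and Hist1h2ae. Hist2h2aa2 had 75.5 TPM in pup 1 and 91.7 TPM in pup 2, and Hist2h2aa1 had 39.7 and 21.01 TPM. Their transcripts are identical over all 528 bases of the shorter one, and no window of Hist2h2aa2 is its own. Summed, the pair had 115 TPM in pup 1 and 113 TPM in pup 2, so the pups differed in the values of the single copies and hardly in their sum. Hist2h2aa1 has 57 windows of its own, 11.7%. Whether the copies themselves differed between the pups or their shared reads were divided differently was not tested. Hist1h2ae had 41.0 TPM in pup 1 and 32.7 TPM in pup 2, and Hist3h2a, the H2A gene of the Hist3 cluster, had 13.6 and 12.9 TPM. Hist3h2a overlaps Trim17 on the same strand. The 2 further Hist2 genes were low: Hist2h2ac had 2.00 TPM in pup 1 and 2.69 TPM in pup 2, and Hist2h2ab was listed at 0 in pup 1 and had 3.22 counts in pup 2. Hist1h2aa, known as a testis H2A gene, was listed at 0 in both pups.

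The remaining Hist1 H2A genes formed a low tier, most of them close copies. The upper ones were Hist1h2ag with 13.4 TPM in pup 1 and 10.5 TPM in pup 2, and Hist1h2ab with 9.01 and 8.89 TPM. Higher values stood in pup 2 for Hist1h2ai, with 3.60 and 8.70 TPM in pups 1 and 2, Hist1h2ak, with 4.06 and 7.63 TPM, and Hist1h2ah, with 2.02 and 3.75 TPM. Higher values stood in pup 1 for Hist1h2aj, with 5.04 and 1.12 TPM, Hist1h2an, with 2.15 and 1.18 TPM, and Hist1h2ad, with 1.51 and 0.76 TPM. These opposite leanings fall among genes with few reads, at most 70.51 expected counts in a library. Hist1h2af had 2.10 TPM in pup 1 and 2.37 TPM in pup 2, and Hist1h2al, the copy outside the cluster, had 0.72 and 0.83 TPM.

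Of the 16 H2B genes, 6 reached 1 TPM in both pups, the lowest share of the 5 types at 37.5%. Hist1h2bc had 287 TPM in pup 1 and 304 TPM in pup 2, 295 ± 11.9 TPM (SD, n = 2). The next was Hist3h2ba with 5.55 and 6.26 TPM in pups 1 and 2, so the step from the first to the second H2B gene was the steepest of any type. Hist1h2bk had 3.52 TPM in pup 1 and 2.91 TPM in pup 2, Hist1h2bj had 3.64 and 1.93 TPM, and Hist1h2bg had 1.78 and 1.94 TPM. Hist2h2be had 1.74 TPM in pup 1 and 1.22 TPM in pup 2. Its sequence is shared with no other gene in any window. Hist1h2bn, Hist1h2bf, Hist1h2bb, Hist1h2be and Hist1h2bq stayed under 1 TPM in both pups, and Hist1h2bp had 1.24 TPM in pup 1 and 0.36 TPM in pup 2. At the bottom were Hist3h2bb-ps with 0.17 and 0.22 TPM, Hist1h2ba, known as the testis H2B gene, with a listed count of 0 in pup 1 and 1.38 in pup 2, and Hist1h2br, listed at 0 in both under its own identifier.

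H3 had the lowest sum of the 5 types. Hist1h3i had 30.05 TPM in pup 1 and 26.0 TPM in pup 2, Hist2h3b had 10.6 and 15.9 TPM, and Hist1h3d had 4.88 and 3.70 TPM. Hist1h3a, with 3.53 and 3.16 TPM in pups 1 and 2, and Hist1h3e, with 1.63 and 1.77 TPM, completed the first 5. The 2 canonical H3 proteins, H3.1 and H3.2, are nearly identical and are known to be deposited together behind the replication fork. The 4 H3.1 genes summed to 37.0 TPM in pup 1 and 32.1 TPM in pup 2, and the 8 H3.2 genes to 20.9 and 25.8 TPM. The count ratio of pup 1 over pup 2 was 1.21 (1.04 to 1.41) for H3.1 and 0.793 (0.682 to 0.921) for H3.2, or 0.849 (0.733 to 0.984) with a Hist2h3c1 transcript listed under another gene identifier. By counting error alone, H3.1 was thus the higher in pup 1 and H3.2 in pup 2. The intervals do not cover error in dividing shared reads between these genes. Of the 100-base windows of Hist1h3i and Hist2h3b, 31.4% and 22.9% occur in no other gene. Of the low H3 genes, Hist1h3b had 0.98 TPM in pup 1 and 0.87 TPM in pup 2, Hist1h3f had 0.42 and 0.09 TPM, and Hist2h3c2 had 0.90 and 1.22 TPM. Hist1h3g had 2.24 and 1.06 TPM, Hist1h3h had 1.20 and 1.85 TPM, and Hist1h3c had 1.5 and 1.34 TPM. Hist2h3c1 had 0.02 counts in pup 1 and 43.95 in pup 2. Its coding sequence is identical to that of Hist2h3c2, but over the 1020 bases of the shorter transcript the 2 differ at 179. Hist2h3c1 also overlaps Gm20634 on the same strand, and none of its windows are its own.

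Of the H4 genes, which all encode the same protein apart from rare variants, Hist1h4d led with 99.5 TPM in pup 1 and 98.0 TPM in pup 2, 98.8 ± 1.05 TPM (SD, n = 2). All windows of its reference transcript, 1138 bases long, are its own, although the model in the deposited tables has 393 bases. The posterior SD of its count was 0.0333% in pup 1 and 0.0126% in pup 2, the lowest of the 4 highest members. Hist1h4i had 7.80 TPM in pup 1 and 7.43 TPM in pup 2, Hist1h4c had 7.06 and 7.03 TPM, and Hist1h4h had 4.43 and 5.89 TPM. The interval of the ratio between the pups included 1 for each of these 3. Hist1h4n had 4.22 TPM in pup 1 and 1.66 TPM in pup 2, and its copy Hist1h4m, which differs from it at 1 base over 402, was listed at 0 in both, with posterior mean counts of 7.82 in pup 1 and 4.6 in pup 2. Hist2h4 had 1.69 TPM in pup 1 and 3.79 TPM in pup 2. Hist4h4, alone in its cluster, had 0.60 and 0.37 TPM. Hist1h4b had 0.93 and 0.53 TPM, Hist1h4k had 0.74 and 0.70 TPM, and Hist1h4j had 0.31 and 0.33 TPM. The lowest besides Hist1h4m were Hist1h4a with 0.32 and 0.13 TPM and Hist1h4f with 0.36 TPM in pup 1 and a listed 0 in pup 2.

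**Figure D2:**
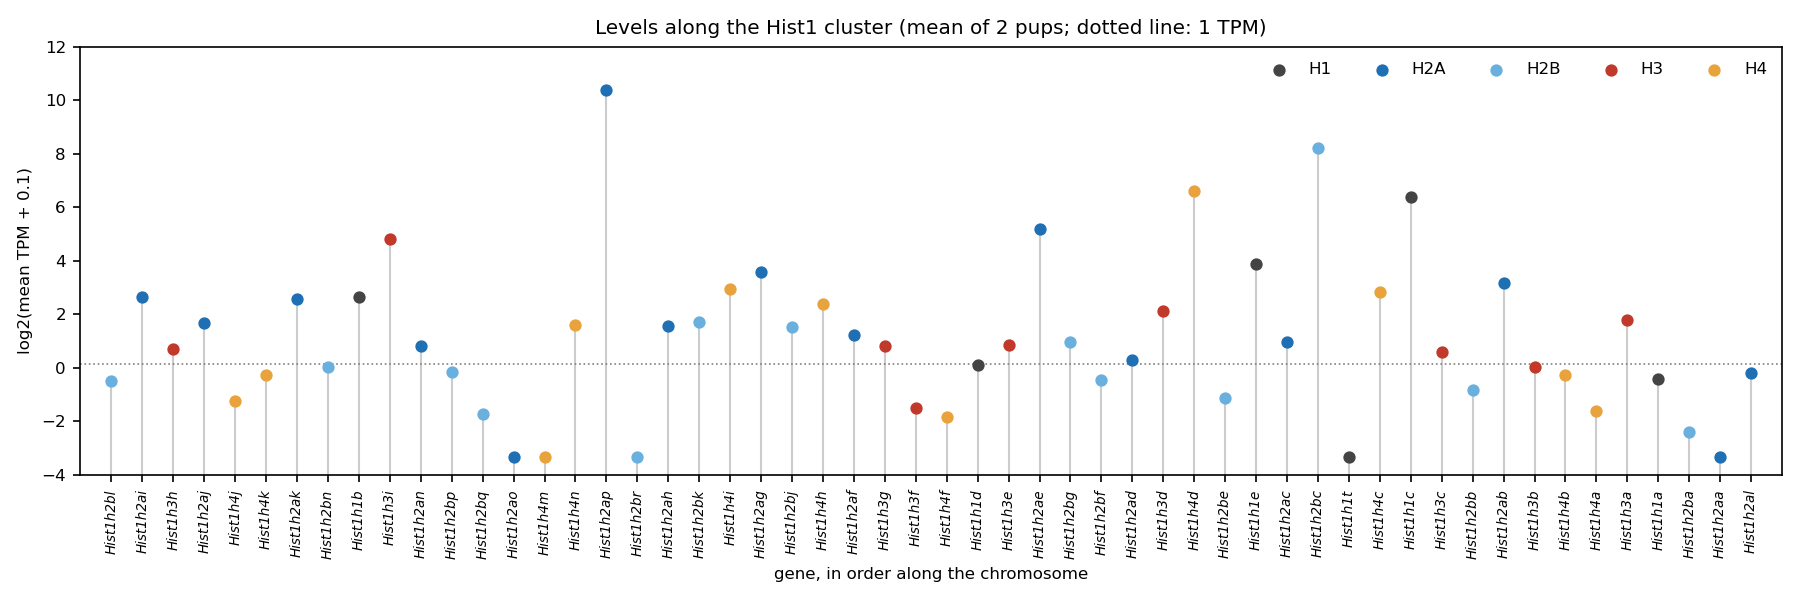
Mean level of the 54 Hist1 genes over the 2 pups as log2(mean TPM + 0.1), in their order along chromosome 13 with equal spacing and coloured by histone type. The 4 highest genes do not sit side by side: Hist1h2ap stands next to Hist1h2br, listed at 0, and Hist1h2bc next to Hist1h2ac and Hist1h1t. The last gene, Hist1h2al, lies outside the cluster.

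H2A and H2B genes are known to be arranged in divergent pairs that share 1 promoter region. The annotation holds 14 such H2A and H2B pairs with start sites 173 to 306 bases apart, and both genes were measured in 13. The H2A gene was the higher of the pair in both pups in 9 of the 13. Hist1h2ap, at 1449 and 1216 TPM in pups 1 and 2, is paired with Hist1h2br, listed at 0 under its own identifier, with 0.67 and 0.61 TPM in a transcript listed under another one. Hist1h2ae, at 41.0 and 32.7 TPM, is paired with Hist1h2bg, at 1.78 and 1.94 TPM. In the opposite direction, Hist1h2ac had 2.14 TPM in pup 1 and 1.56 TPM in pup 2, and its partner Hist1h2bc, 251 bases away, had 287 and 304 TPM. Other pairs were close: in 4 of the 13 the means were at most 2.08-fold apart, and for Hist1h2ah and Hist1h2bk, 1.11-fold apart, the order differed between the pups.

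The regions between these pairs are shown because they serve genes of such different levels. They are the 300 bases from 250 before to 50 after the start of the H2A gene in RefSeq, read on the strand of that gene. Capitals mark matches on either strand to CCAAT, to TATAAA and to ATTTGCAT, the octamer known from H2B promoters. The H2B gene of each pair runs the other way and starts near the left end. No matches of different motifs overlap in them.
Hist1h2ap, chr13:21833426-21833725 of GRCm38.p6, minus strand: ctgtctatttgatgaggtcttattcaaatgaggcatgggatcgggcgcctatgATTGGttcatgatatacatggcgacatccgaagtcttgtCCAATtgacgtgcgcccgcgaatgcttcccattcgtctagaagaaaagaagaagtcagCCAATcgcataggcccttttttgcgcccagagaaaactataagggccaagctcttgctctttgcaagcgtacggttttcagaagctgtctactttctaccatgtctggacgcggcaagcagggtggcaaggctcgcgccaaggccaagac
Hist1h2ac, chr13:23683910-23684209 of GRCm38.p6, minus strand: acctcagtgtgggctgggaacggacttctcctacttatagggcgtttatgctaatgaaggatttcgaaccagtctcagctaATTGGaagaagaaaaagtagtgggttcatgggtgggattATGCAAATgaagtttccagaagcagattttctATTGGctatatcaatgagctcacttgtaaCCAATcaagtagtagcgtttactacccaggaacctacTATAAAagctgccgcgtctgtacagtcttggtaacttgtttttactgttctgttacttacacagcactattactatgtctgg

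The region of Hist1h2ap held CCAAT at 3 places, starting at positions −197, −158 and −100 relative to the RefSeq start, and neither of the other motifs. That of Hist1h2ac held CCAAT at −169, −98 and −69, TATAAA at −32 and the octamer at −130. RefSeq promoters were found for 59 of the 67 members. CCAAT occurred in 50 of the 59 (84.7%), against 37.4% of 32851 promoters of the same length, and in all H1, H2A, H2B and H3 promoters found but in 3 of the 12 H4 promoters. TATAAA occurred in 35 (59.3%), against 13.6% of all promoters. The octamer occurred in 11 (18.6%), against 1.74% of all, and all 11 were H2A or H2B promoters, some of which overlap each other because the pairs share them. The median mean level of members was 1.78 TPM in the 50 with CCAAT and 0.720 TPM in the 9 without, all of which are H4 promoters, 1.67 TPM in the 35 with TATAAA and 1.68 TPM in the 24 without, and 2.35 TPM in the 11 with the octamer and 1.47 TPM in the 48 without. A match of letters is a description of the sequence and does not show binding.

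The median replication-dependent gene was far below the median replacement variant, although the leading members were not: by mean TPM, Hist1h2ap was above all 11 replacement genes and Hist1h2bc above 8 of them. No other member was above the median replacement gene. All 11 replacement genes reached 10 TPM in both pups. The difference of the medians, members minus replacement genes, was −5.83 in pup 1 and −6.24 in pup 2 on the log2(TPM + 0.1) scale, −6.03 ± 0.295 (SD, n = 2), which puts the median member 65.5-fold lower. Members made up 40.0% of the TPM of members and replacement genes together in pup 1 and 38.0% in pup 2. Without Hist1h2ap this share was 19.6 ± 0.281%.

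The balance differed by type. For H2A, members summed to 1667 TPM in pup 1 and 1424 TPM in pup 2, and the 6 replacement genes to 1341 and 1300 TPM. The members' share of this H2A total was 53.8 ± 2.21% of TPM. It was 31.2% when counts were not divided by length (CPM), which puts the replacement genes ahead, and 13.9% of TPM without Hist1h2ap. For H1 the members' share was 31.2 ± 0.786% of TPM, with 107.9 and 105.8 TPM from members in pups 1 and 2, and 244 and 227 TPM from H1f0 and H1fx. For H3 it was 3.11 ± 0.0200% of TPM, and 1.03% by CPM, with 58.0 and 57.9 TPM from members, and 1813 and 1795 TPM from H3f3a, H3f3b and Cenpa. H3.3 alone accounted for 96.8% of the TPM of H3.1, H3.2 and H3.3 in both pups. How the capture of tailless mRNAs bears on these shares, and on the medians of members and replacement genes, was not tested.

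**Figure D3:**
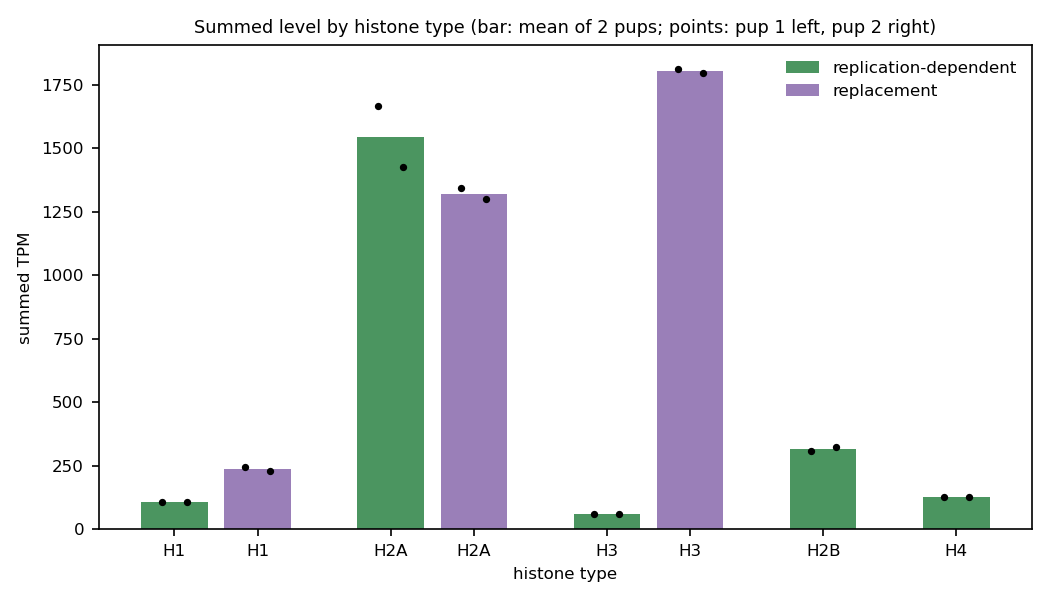
Summed TPM by histone type, as bars from 0 for the mean of the 2 pups with a point for each pup (pup 1 left), for replication-dependent genes in green and replacement genes in purple. No replacement genes were listed for H2B and H4. The green H2A bar at 1545 TPM is close to the purple one at 1321 TPM, while the green H3 bar at 57.9 TPM is a small fraction of the purple one at 1804 TPM.

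H3f3b had 891 TPM in pup 1 and 924 TPM in pup 2, and H3f3a had 868 and 828 TPM, both for H3.3, the variant laid down outside replication. H2afz, for H2A.Z, had 790 and 748 TPM, and H2afv, for its second form, had 276 and 273 TPM. H1f0, the linker histone known from non-dividing cells, had 230 TPM in pup 1 and 215 TPM in pup 2. H2afy, for macroH2A, had 104 and 109 TPM, H2afj had 80.5 and 83.9 TPM, and H2afx had 72.1 and 68.8 TPM. Cenpa, for the centromeric H3, had 54.2 TPM in pup 1 and 42.9 TPM in pup 2, a count ratio of 1.33 (1.24 to 1.43), the furthest from 1 of the 11. H2afy2 had 18.5 and 17.1 TPM and H1fx had 14.0 and 12.4 TPM. The 5 germline variants, H1foo, H1fnt, Hils1, H2afb1 and H2bfm, were listed at 0 in both pups.

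The median gene of S phase was well above the median member, while the sums stood the other way. The 67 members summed to 2268 TPM in pup 1 and 2036 TPM in pup 2, and the S-phase genes to 549 and 550 TPM. Without Hist1h2ap the members summed to 819 and 821 TPM. How the division of reads between copies and the capture of tailless mRNAs bear on the medians was not tested. All 22 S-phase genes reached 1 TPM in each pup, at a median level of 20.5 TPM in pup 1 and 21.02 TPM in pup 2, and the highest were Pcna, the replication clamp, at 83.8 and 85.1 TPM, Tyms at 53.9 and 51.7 TPM, Mcm6 at 45.5 and 47.8 TPM and Dut at 38.8 and 41.1 TPM. The difference of the medians, members minus S-phase genes, was −3.48 in pup 1 and −3.87 in pup 2 on the log2(TPM + 0.1) scale, −3.67 ± 0.274 (SD, n = 2), which puts the median member 12.8-fold lower. The direction was the same in both pups, and no p-value is given because 2 samples of 1 group allow none below 0.5 in a sign-flip test. All 14 mitosis genes reached 1 TPM too, led by Cdk1 at 107 TPM in pup 1 and 79.9 TPM in pup 2, Birc5 at 69.1 and 67.4 TPM, Ccnb2 at 42.0 and 33.02 TPM, and Top2a at 33.1 and 32.3 TPM.

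The factors that act on histone genes and their mRNAs were expressed. In the histone locus body, Npat, the coactivator that cyclin E and Cdk2 switch on, had 3.38 TPM in pup 1 and 3.89 TPM in pup 2. Casp8ap2, known as FLASH, had 14.3 and 15.1 TPM, and Cdk2 had 17.9 and 18.6 TPM. Ccne1 and Ccne2, the cyclins E, had 9.63 and 10.9 TPM in pup 1, and 10.1 and 12.2 TPM in pup 2. Hinfp, which acts on H4 promoters, had 3.84 and 3.36 TPM in pups 1 and 2, and Pou2f1, or Oct-1, which binds the octamer, had 4.85 and 5.47 TPM. All 7 genes of this list reached 1 TPM in each pup, and none was over 2-fold apart.

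For the processing and decay of the 3′ end, 23 of 24 measured genes reached 1 TPM in both pups. Slbp, the stem-loop binding protein, had 76.3 TPM in pup 1 and 75.2 TPM in pup 2. Of the proteins particular to the U7 particle, Lsm10 had 39.6 and 40.7 TPM and Lsm11 had 2.70 and 2.46 TPM. The Sm proteins it shares with the splicing particles ranged from Snrpd3 at 18.8 and 17.7 TPM through Snrpf at 46.9 and 45.4 TPM and Snrpb at 188 and 186 TPM to Snrpg at 228 and 209 TPM and Snrpe at 290 and 280 TPM. Zfp473, a zinc finger protein of the histone 3′ end complex, was the exception at 0.21 TPM in pup 1 and 0.19 TPM in pup 2. Rnu7, the U7 RNA itself, is shorter than the reads and could not be measured.

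Genes of the cleavage complex were measured as well. The nuclease Cpsf3 had 27.8 TPM in pup 1 and 28.2 TPM in pup 2, and its partner Cpsf2 had 10.5 and 10.7 TPM. Cstf2 had 9.28 and 9.07 TPM and Sympk, the scaffold, had 6.99 and 7.17 TPM. Mblac1, described as a histone pre-mRNA nuclease, had 4.16 and 4.80 TPM. Of the cap-binding genes, Ncbp1 had 17.5 and 16.9 TPM, Ncbp2 had 22.5 and 19.9 TPM, and Srrt had 17.6 and 18.2 TPM. Mif4gd, which links SLBP to translation, had 34.6 and 39.3 TPM. In decay, Lsm1 had 24.9 TPM in pup 1 and 24.6 TPM in pup 2, Upf1 had 7.97 and 7.64 TPM, and Eri1, an exonuclease of the stem-loop, had 6.63 and 5.99 TPM. The uridylating enzymes Zcchc6 and Zcchc11 had 19.7 and 15.1 TPM in pup 1, and 21.7 and 18.0 TPM in pup 2. All 17 histone chaperone genes reached 1 TPM in each pup, led by Npm1 at 239 and 243 TPM, Rbbp4 at 126 and 139 TPM, Nap1l4 at 59.2 and 60.4 TPM and Nap1l1 at 43.9 and 45.5 TPM.

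Between the littermates, few members were over 2-fold apart beyond counting error. Ratios are of expected counts over library sizes normalised by TMM, with exact Clopper-Pearson 95% intervals that cover counting error only, since reads copied by PCR are not independent molecules. A member was called over 2-fold apart where the interval lay wholly above 2 or below 0.5. Of 57 members with a summed count of 10 or more, 3 were called, 1 higher in pup 1 and 2 higher in pup 2. Over all 19088 Ensembl genes with that count, 152 (0.796%) were called, 0.367% higher in pup 1 and 0.430% higher in pup 2. All 3 are genes of few reads and shared sequence. The pseudogene Hist1h2aj had 45.81 counts in pup 1 and 7.80 in pup 2, a ratio of 4.61 (2.15 to 11.3). Hist1h2bl was listed at 0 in pup 1 and had 9.56 counts in pup 2, and its interval ends at 0.358. Hist2h3c1, described above, had an interval that ends at 0.0701.

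None of the 3 calls held with the authors' posterior mean counts, by which no member was over 2-fold apart. Of the 34 members tested that have at least 50% of their reference windows to themselves, none was called. The reference model has the quantified length in 47 of the 67 members. Hist1h2ac, for example, has 2482 bases in the reference and 476 as quantified, so these 34 need not be distinct in the measured sequence. For Hist2h3c1, a second transcript is listed under another gene identifier, now named Gm20634, with 25.13 counts in pup 1 and none in pup 2. With both transcripts, Hist2h3c1 had 25.15 counts in pup 1 and 43.95 in pup 2, a ratio of 0.456 (0.267 to 0.761), which is not over 2-fold apart by this rule. The 3 Hist2 genes for H3.2 together, Hist2h3b, Hist2h3c1 and Hist2h3c2, had 11.5 TPM in pup 1 and 18.1 TPM in pup 2, a count ratio of 0.580 (0.476 to 0.706), or 0.665 (0.550 to 0.804) with that second transcript. Among members with at least 50% own windows, the interval of Hist2h4 came nearest to the threshold, with 93 counts in pup 1 and 160 in pup 2 and a ratio of 0.466 (0.357 to 0.605).

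**Figure D4:**
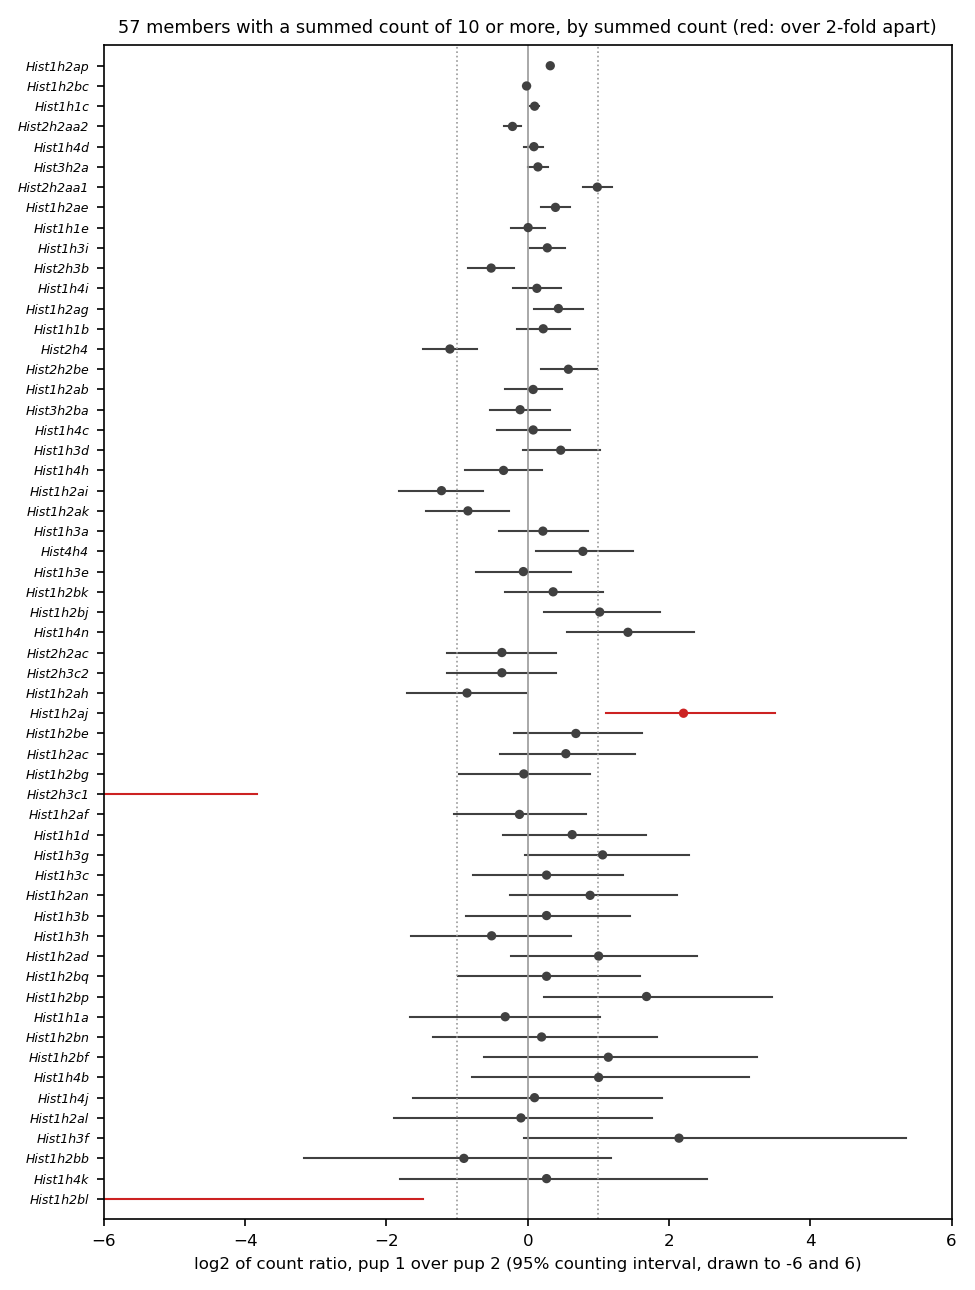
Log2 ratio of counts, pup 1 over pup 2, with its 95% counting interval for the 57 members with a summed count of 10 or more, ordered from the most reads at the top to the fewest. Intervals widen downwards, from 1.22 to 1.28 for Hist1h2ap on the linear scale, and the 3 in red lie wholly beyond 2-fold; Hist2h3c1 and Hist1h2bl have no point because their ratio is at or near 0.

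The summed count of all members was 1.14-fold higher in pup 1 (1.12 to 1.16), and the excess was smaller without Hist1h2ap. Hist1h2ap had a ratio of 1.25 (1.22 to 1.28), and without it the sum over the other 66 members had a ratio of 1.04 (1.02 to 1.06). The H2A members without Hist1h2ap had a ratio of 1.11 (1.05 to 1.16). By type, the ratio was 1.22 (1.20 to 1.25) for H2A, 1.07 (1.02 to 1.12) for H1, 1.02 (0.944 to 1.1) for H4, 1.00 (0.968 to 1.04) for H2B and 0.977 (0.879 to 1.09) for H3. The ratios for the other lists were 1.05 (1.03 to 1.06) for S-phase genes, 1.18 (1.16 to 1.20) for mitosis genes, all 14 of which had a ratio above 1, and 0.693 (0.683 to 0.704) for erythroid genes. Their part in the ratio of the members was not tested. Over all tested members, the median log2 ratio was 0.14, and over all tested Ensembl genes 0.01.

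Members differed in how much sequence they share with other genes. Of the 67, 41 had at least 50% of their 100-base windows to themselves, 7 had under 10% and 3 had none, namely Hist2h2aa2, Hist2h3c1 and Hist1h2bq. H1 genes were the most distinct, with a median of 99.6% own windows, and H2A genes the least, with 35.5%. The nearest other member of the same type had a coding identity of 98.4% at the median over all members, from 81.5% for H1 to 98.9% for H3, and 8 members had a coding sequence identical to that of another. The posterior SD of the count in pup 1 was over 20% of the count in 29 members and under 5% in 16. These figures describe the reference annotation, in which the length of the transcript equals that in the deposited tables for 47 of the 67 members.

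**Figure D5:**
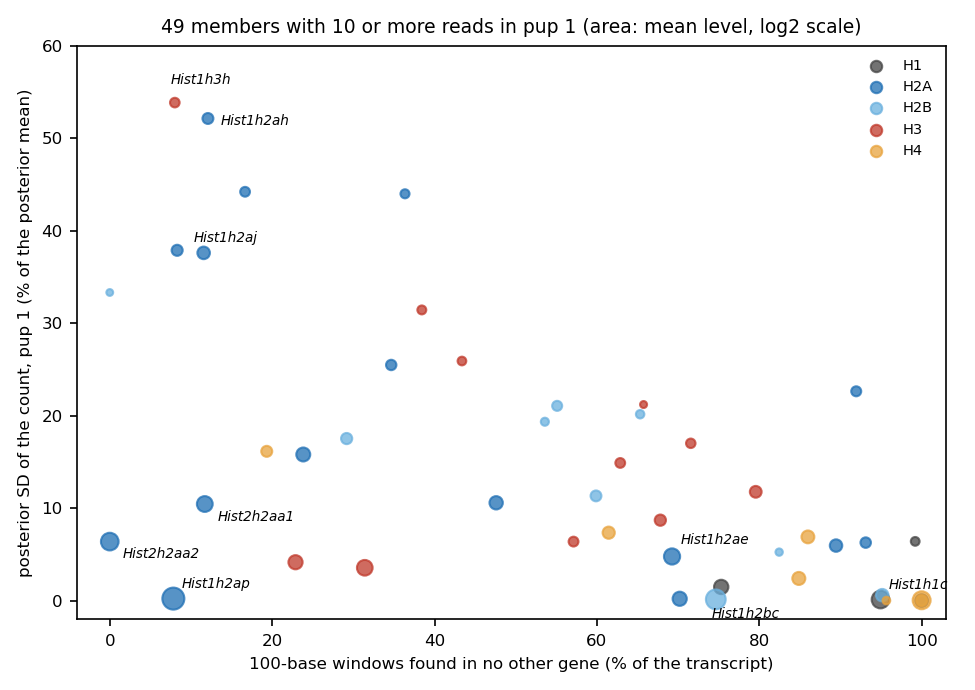
Deposited posterior SD of the count in pup 1, as a percentage of the posterior mean, against the percentage of 100-base windows of the transcript found in no other gene, for the 49 members with 10 or more reads in pup 1; point area follows the mean level. Members with few windows of their own reach an SD of 53.8% (Hist1h3h), those with over 94% lie under 7%, and Hist1h2ap, at 7.83% own windows and 0.213% SD, is low on both axes.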

How the data were processed

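Total RNA-seq libraries of 2 littermate intestines were quantified by the authors against mm10 with GENCODE M4, per the deposited text files. The aligner, quantifier and strand handling were details not given in the sources used here. Deposited gene and transcript tables hold expected counts, in which shared reads are divided between features, TPM, posterior mean counts with their SD, and the percent of each transcript in its gene. No separate cultures or batches are named, so the spread between the pups may be technical in part.

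Symbols and transcripts came from GENCODE M21, promoters from RefSeq (GRCm38.p6). Members and gene lists were chosen with earlier results of these data known. Members given in full were the 5 highest of each type, all Hist2, Hist3 and Hist4 genes, those over 2-fold apart and the lowest 3 of each type. Ratios used TMM (edgeR 4.0.16, R 4.3.3), counts rounded to whole numbers, and Clopper-Pearson intervals (SciPy 1.17.1); DESeq2 1.42.0 size factors were an alternative. In data simulated for this comparison over 19091 genes, 0 of 50 genes changed 1.5-fold, 47 of 50 changed 3-fold and 3 of 18891 unchanged genes were called. Changes were set only in genes with an expected summed count of 50 or more, and counts varied by counting error alone. The division of shared reads between copies was not simulated, so these figures do not cover members of few reads or shared sequence. No gene-wise p-values were made, since 2 samples of 1 group allow none.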

Additional observations from a re-analysis of the deposited data

Results flagged for a closer look

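Some transcripts of histone genes are listed in the deposited tables under another gene identifier, and the counts of the report do not include them. For Hist2h2bb, which has no row of its own, such a transcript held 43.06 expected counts over both pups, 18.54 in pup 1 and 24.52 in pup 2, with 1.83 and 3.16 TPM. For Hist2h3c1 it held 25.13 counts, all in pup 1. For Hist1h2br it held 11.5 counts, 6.78 in pup 1 and 4.72 in pup 2, and Hist1h2br was listed at 0 under its own identifier. For Hist1h2bq it held 10.15 counts, 8.77 in pup 1 and 1.38 in pup 2. Each is above the limit of 3 counts that a count of 0 allows in a library, by the sum over both pups.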

How the results depend on the processing

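No paired analysis was possible because there is only 1 group. The order of H2A before H2B and the share of H2A rested on Hist1h2ap. Without Hist1h2ap, an alternative chosen after seeing the data like the one on own windows, the summed level was 820 TPM, the members' share of all listed histone TPM 19.6%, the summed count ratio 1.04, the shares of H1, H2A, H2B, H3 and H4 13.04%, 26.0%, 38.4%, 7.07% and 15.5%, that of the Hist1 cluster 81.1%, and the members' share of all listed H2A 13.9%. Without length normalisation (CPM), the summed level was 819 CPM, the share of all histone values 20.2%, the shares of the 5 types in the same order 13.5%, 60.3%, 19.6%, 2.22% and 4.41%, that of the Hist1 cluster 90.4%, and the members' shares of all listed H1, H2A and H3, an alternative also added after seeing the data, 21.6%, 31.2% and 1.03%. H1 then stood above H4, and replacement H2A genes above H2A members. By posterior mean TPM the members' share of all listed H3 was 3.14%. By CPM, the median difference from replacement genes was −7.68, and from S-phase genes −5.79. By TPM with a pseudocount of 1 these differences were −5.41 and −3.10, and over members at 1 TPM or more in both pups only, −4.32 and −1.96. With the mean in place of the median, the difference from S-phase genes was −3.18. Rescaled without mitochondrial genes and spike-ins, the summed level was 2366 TPM. At 5 TPM, 17 members were detected, and 23 of those with at least 50% own windows reached 1 TPM. Scaled by total count, the summed ratio was 1.11. Members over 2-fold apart numbered 0 with posterior mean counts, 0 among those with 50% own windows, and 1 (Hist1h2aj) at a summed count of 50 or more; the cause was not tested.

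Using 1 pup alone, detected members numbered 40 to 41, the summed level was 2036 to 2268 TPM, the difference from replacement genes −6.24 to −5.83 and from S-phase genes −3.87 to −3.48. The share of all histone TPM was 38.0% to 40.0%, that of H1 4.76% to 5.198%, H2A 69.9% to 73.5%, H2B 13.6% to 15.8%, H3 2.56% to 2.84%, H4 5.64% to 6.18% and the Hist1 cluster 92.2% to 93.3%. The members' shares of all listed H1, H2A and H3 were 30.7% to 31.8%, 52.3% to 55.4% and 3.097% to 3.126%. Of the 105 alternatives run for these summary values, 69 moved them by less than the spread between the pups or left the count within 1.5 times. For levels, shares and differences, the value of 1 pup alone always lies within that spread. Those alternatives could not move, so the tally of 69 is no measure of robustness. Under posterior mean TPM, 17 of 67 single levels moved by more than the spread between the pups, and none of the 40 members at a mean of 1 TPM or more by over 1.5 times. The ratios of all 57 tested members kept their side of the threshold under DESeq2 size factors. Depth limited the low members, since 3 counts are the floor of each library.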
